A study of Mus musculus with 20 samples.

Results

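Kidney genes of acid-base balance and ammonia genesis were followed across wild type mice and Col4a3-/- mice, a model of Alport syndrome. They were taken by symbol as 9 of the 47069 genes of the count table, and all 9 passed the filter on low counts. Slc38a3 and Glud1 serve ammonia genesis, Slc4a4 and Slc9a3 move bicarbonate and protons in the proximal tubule, and Car2, Car4, Car12, Car14 and Car15 encode carbonic anhydrases. RNA-seq of total kidney RNA was available for 20 mice of the mixed strain 129SJ x C57Bl/6J, all males, killed at 15 weeks of age. The 5 WT mice were untreated. The other 15 mice lacked Col4a3, which encodes a chain of the type IV collagen of the glomerular basement membrane, and were treated from 5 weeks of age. Among them, 6 received weekly subcutaneous PBS (Veh), 6 received weekly subcutaneous lademirsen, an oligonucleotide against miR-21, at 50 mg/kg in PBS (anti-miR-21), and 3 drank water with the ACE inhibitor ramipril at 11 mg/L (ACEi). WT mice had no injections, so genotype and injection cannot be told apart in Veh against WT. For this mouse model the study's methods give weekly PBS injections to ACEi mice as well as to Veh mice, which the labels of the ACEi libraries do not mention. Each library came from 1 mouse, so the p-values below measure the spread between these mice.

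Ammonia genesis is how the proximal tubule makes new bicarbonate. Glutamine enters the cell through SNAT3 (Slc38a3), is split to glutamate, and glutamate is oxidised by mitochondrial glutamate dehydrogenase (Glud1), which frees ammonium for the urine and leaves bicarbonate for the blood. Filtered bicarbonate is recovered in the same cells: the sodium-proton exchanger NHE3 (Slc9a3) secretes protons at the apical side, carbonic anhydrases interconvert carbon dioxide and bicarbonate on both sides of the membrane, and the sodium-bicarbonate cotransporter NBCe1 (Slc4a4) returns bicarbonate to the blood.

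The RNA targeted by anti-miR-21 is shown first, because the letters pairing with its seed were not found in the longest 3′ UTR of any of the 9 genes. Mature miR-21 of the mouse lies at chr11:86584120-86584141 on the minus strand (RefSeq, GRCm38.p6). The capitals mark its seed, bases 2 to 8.
mmu-miR-21a-5p: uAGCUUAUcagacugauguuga
The complement of that seed, ATAAGCT, was searched on the sense strand of the longest annotated 3′ UTR of each gene (GENCODE vM21). It was found in 0 of the 9 genes, whose UTRs ran from 51 bases in Car15 to 4183 bases in Slc4a4. It was present in 1509 of 21010 genes with a 3′ UTR (7.18%), and no match says only that these letters are not in these windows.

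The promoters of Car4 and Car15 are printed because these carbonic anhydrases moved in opposite directions in the diseased kidney. Each runs from 250 bases before to 50 bases after the RefSeq start site (GRCm38.p6), 5′ to 3′ on the gene's own strand, with every CG dinucleotide in capitals. Car4 lies at chr11:84957504-84957803 (plus strand) and Car15 at chr16:17838137-17838436 (minus strand).
Car4: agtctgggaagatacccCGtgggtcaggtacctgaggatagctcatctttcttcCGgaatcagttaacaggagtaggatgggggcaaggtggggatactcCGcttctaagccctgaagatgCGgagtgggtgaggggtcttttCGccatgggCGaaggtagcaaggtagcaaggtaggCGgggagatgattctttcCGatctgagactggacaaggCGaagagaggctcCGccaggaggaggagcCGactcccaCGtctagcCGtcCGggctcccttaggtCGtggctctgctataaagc
Car15: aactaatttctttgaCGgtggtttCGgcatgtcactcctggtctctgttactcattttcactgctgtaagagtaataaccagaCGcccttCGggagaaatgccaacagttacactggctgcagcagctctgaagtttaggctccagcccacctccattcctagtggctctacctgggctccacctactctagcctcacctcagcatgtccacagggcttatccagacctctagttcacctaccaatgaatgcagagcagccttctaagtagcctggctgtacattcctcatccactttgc
Car4 held 15 CG dinucleotides, a number that 34.6% of all promoters reached, and Car15 held 4, which 68.6% reached. The promoter table matched 7 of the 9 genes with 8 promoters. CG content set these genes apart from each other: Glud1 held 51 and the upstream start of Slc4a4 held 50, while the downstream start of Slc4a4, within the gene, held 3. Both strands were searched for the core letters of an HNF1 site GTTAAT (7.1% of 32851 promoters), the HNF4 site CAAAGTCCA (0.475%) and the TATA box letters TATAAA (13.6%). The 1 match in the 8 promoters was TATAAA in Car4, starting 43 bases after the start site on the gene's strand.

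The libraries were even in depth, with 70004591 to 73294858 alignments and 28474301 to 29479629 gene counts per mouse. Col4a3 itself read 193.8 to 237.5 CPM (counts scaled to the TMM-adjusted library size) in WT and 27.9 to 74.86 CPM in the 15 Col4a3-/- mice. Libraries were run on 2 flow cells, called A (13 mice) and B (7 mice) here, and flow cell B held 2 WT, 2 Veh, 1 anti-miR-21 and 2 ACEi mice. Proximal tubule markers identified the tissue as kidney and fell with disease: all 8 were lower in Veh, and their summed level was 20860 to 25830 CPM in WT and 2747 to 6639 CPM in Veh. The sum was 11790 to 19230 CPM under anti-miR-21 and 11450 to 14890 CPM under ACEi. All 5 macrophage markers rose in Veh (136.7 to 150.2 CPM in WT, 770.6 to 943 CPM in Veh), as did all 4 fibroblast markers (109.4 to 249.9 and 1485 to 1793 CPM) and all 3 tubule injury markers (14.4 to 31.0 and 522.7 to 1037 CPM). Intercalated cell markers were lower in Veh in all 6 cases. Of 5 adipocyte markers, 4 were called higher in Veh. Their sum was uneven there, from 0.59 CPM in mouse A20 to 410.1 CPM in A1 (median 187.1), against at most 18.3 CPM in WT. In whole kidney RNA, fewer cells of a type and less RNA per cell cannot be told apart, and the part of these shifts in the results below was not tested.

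In Veh kidneys, 8 of the 9 genes were lower than in WT and 1, Car15, was higher, all past an adjusted p of 0.05 in edgeR's quasi-likelihood test. Changes this common were the background here, since 73.0% of the 17622 genes tested were called and 34.0% were called lower. The median log2 fold change of the 9 genes was -1.43, against 0.07 over all genes tested. The 9 genes were chosen with earlier results of these data known, so this contrast is a description. The steepest fall was that of Car4, 7.80-fold, and the shallowest called fall was that of Car2, 1.54-fold. In CPM the Veh and WT mice were fully separated for 7 of the 9 genes, as for 54.9% of all genes, and the exceptions were Slc9a3 and Car15.

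**Figure D1:**
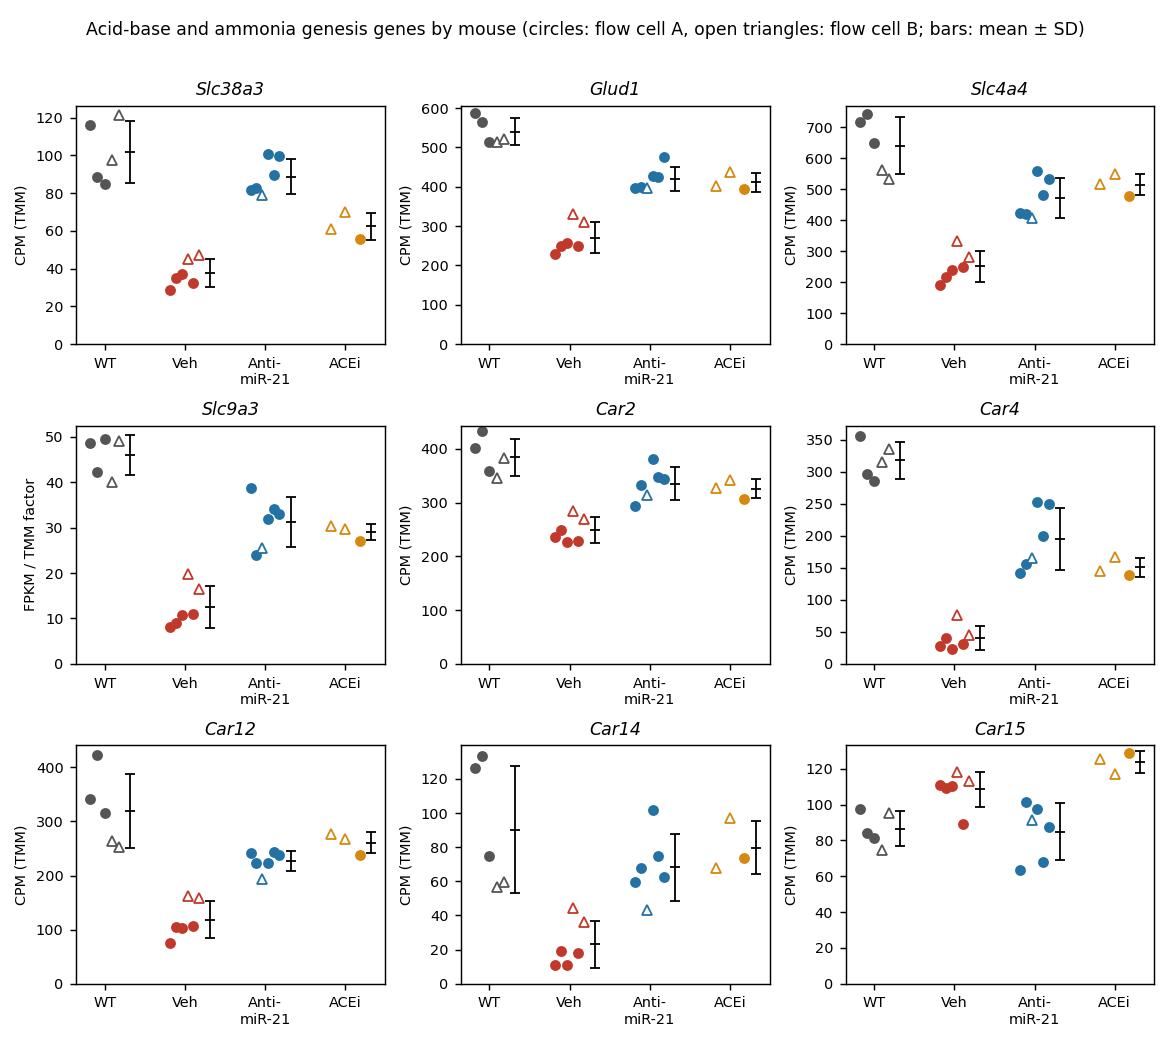
Level of each gene in every mouse by group (CPM, and for Slc9a3 FPKM divided by the TMM factor; filled circles, flow cell A; open triangles, flow cell B; bars, mean ± SD). In 8 of the 9 panels all Veh mice lie below all WT mice, the exception being Car15, and in every panel the 2 highest Veh mice are triangles.

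Slc38a3 (ENSMUSG00000010064, chr9:107650634-107669530, minus strand, GRCm38), the glutamine transporter at the start of ammonia genesis, read 115.8, 88.55, 84.85, 97.66 and 121.6 CPM in the 5 WT mice. In Veh it ran from 28.64 to 47.26 CPM, with a median of 36.09. Every Veh mouse was thus below every WT mouse, and the log2 fold change was -1.44 (SE 0.124, adjusted p = 2.175e-09). Under anti-miR-21 Slc38a3 ran from 78.71 to 100.7 CPM (median 86.07), which overlapped WT and not Veh. The 3 ACEi mice read 61.2, 70.1 and 55.67 CPM, above all Veh mice and below all WT and anti-miR-21 mice. In FPKM the ACEi mice (23.13 to 27.64) overlapped Veh (up to 23.56) and WT (from 27.58).

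Glud1 (ENSMUSG00000021794, chr14:34310727-34345265, plus strand), the glutamate dehydrogenase of the mitochondrial matrix, was the more abundant of the ammonia genesis pair per unit length, at 141 ± 7.57 FPKM in WT (SD, n = 5) against 33.2 ± 4.87 FPKM for Slc38a3. Its WT values were 587.8, 564.2, 514.3, 512.6 and 521.1 CPM, and its Veh values ran from 228.5 to 329.9 CPM (median 253.2). The groups did not overlap, and Glud1 fell by 0.996 on the log2 scale (SE 0.0881, adjusted p = 2.904e-09). Anti-miR-21 mice ran from 395.8 to 475.1 CPM (median 411.1) and ACEi mice read 402.0, 438.5 and 393.7 CPM. In CPM both treated groups lay above all Veh mice and below all WT mice. In FPKM the anti-miR-21 mice (123.7 to 134.1) overlapped Veh (up to 124.8) and WT (from 132.5). ACEi mice (128.2 to 137.1 FPKM) overlapped WT and stayed above Veh.

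Slc4a4 (ENSMUSG00000060961, chr5:88886818-89239653, plus strand), the basolateral bicarbonate exit, read 717.7, 742.0, 649.2, 561.5 and 533.1 CPM in WT and 189.7 to 332.5 CPM in Veh (median 243.7). It fell by 1.35 on the log2 scale in Veh (SE 0.129, adjusted p = 8.593e-09), without overlap. Anti-miR-21 brought it to 408.5 to 557.9 CPM (median 452.3), and ACEi mice read 517.5, 549.1 and 479.1 CPM. Both treated ranges lay above every Veh mouse and passed only the lowest WT mouse, A18 (533.1 CPM).

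Slc9a3 (ENSMUSG00000036123, chr13:74121457-74169442, plus strand), the apical proton exchanger, needs its FPKM (fragments per kilobase of transcript, scaled by library totals) beside its counts. Its counts, at a mean of 3.93 CPM without TMM, were 2.81% of the 139.9 that its FPKM and length imply, whereas the share was 82.6 to 98.8% for the 8 other genes. Of 9692 genes that could be compared, 45 (0.464%) stood below 10%, and the median was 92.0%. Across the 20 mice its counts and FPKM correlated at r = 0.616, against r of at least 0.999 for the others, so the 2 measures of Slc9a3 are reported separately and which is right was not tested.

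**Figure D2:**
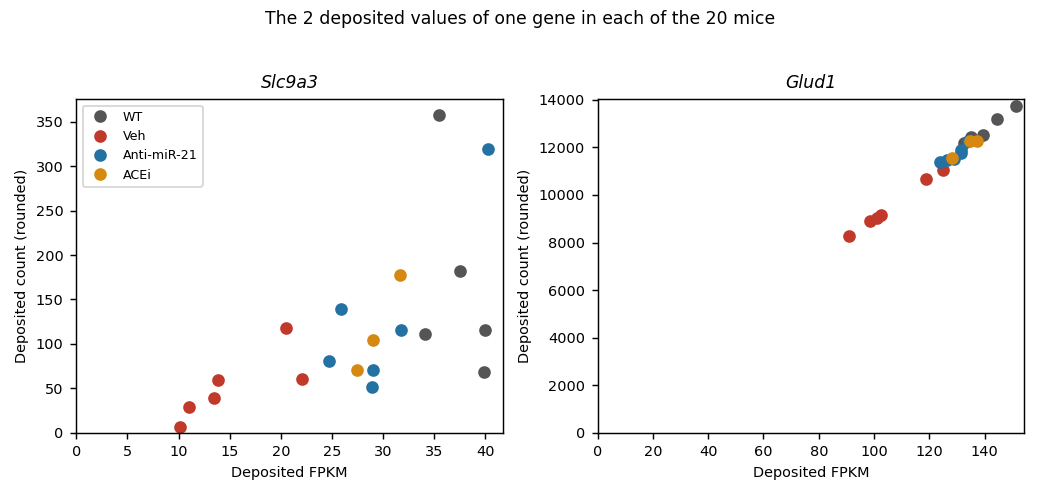
Gene counts against FPKM in each of the 20 mice for Slc9a3 and, for comparison, Glud1. Glud1 lies on a line, whereas Slc9a3 counts are 2.81% of what its FPKM imply and scatter around them.

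By FPKM, Slc9a3 read 37.47, 35.49, 40.0, 34.07 and 39.82 in WT and 10.17 to 22.11 in Veh (median 13.64). It read 24.66 to 40.21 under anti-miR-21 (median 28.99) and 31.67, 29.05 and 27.43 under ACEi. All Veh mice lay below all other mice. With FPKM divided by the TMM factor, limma gave a log2 fold change of -1.85 in Veh against WT (SE 0.177, adjusted p = 4.659e-08). The counts gave -2.25 with a wider error (SE 0.540, adjusted p = 0.0009016), and their ranges overlapped, with 2.852 to 14.68 CPM in WT and 0.1658 to 3.329 CPM in Veh.

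Car4 (ENSMUSG00000000805, chr11:84957786-84966044, plus strand), the membrane-anchored carbonic anhydrase of the proximal brush border and basolateral side, was the most abundant of the 9 genes in WT by FPKM. It read 355.5, 296.1, 285.1, 316.0 and 335.5 CPM in WT and 23.07 to 75.91 CPM in Veh (median 35.62). The fall of 2.96 on the log2 scale (SE 0.237, adjusted p = 7.099e-10) put Car4 at percentile 1.07 of the fold changes of all genes tested. Anti-miR-21 mice ran from 141.5 to 252.9 CPM (median 182.6) and ACEi mice read 145.6, 167.5 and 139.3 CPM. No treated mouse reached the WT range and none lay within the Veh range.

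Car12 (ENSMUSG00000032373, chr9:66713686-66766845, plus strand), a transmembrane enzyme, read 341.5, 423.4, 315.9, 263.6 and 253.6 CPM in WT and 75.21 to 161.8 CPM in Veh (median 105.9), a log2 fold change of -1.43 (SE 0.163, adjusted p = 1.069e-07). Car14 (ENSMUSG00000038526, chr3:95897768-95904691, minus strand), another transmembrane enzyme, read 126.7, 133.5, 74.84, 56.78 and 59.73 CPM in WT. It read 10.86 to 44.09 CPM in Veh (median 18.45), and fell 3.90-fold (SE 0.336 on the log2 scale, adjusted p = 2.453e-05). In CPM no Veh mouse reached the WT range in either gene. In FPKM the Car14 ranges overlapped, with Veh up to 30.97 and WT from 30.12. Anti-miR-21 mice read 193.9 to 243.9 CPM for Car12 (median 231.2), below all WT mice, whereas ACEi mice read 276.9, 266.7 and 238.8 CPM and overlapped WT. In FPKM the anti-miR-21 mice (53.83 to 68.89) overlapped both Veh (up to 54.5) and WT (from 56.26). For Car14, the anti-miR-21 range of 43.29 to 101.8 CPM (median 65.11) overlapped that of WT, and its lowest mouse, A10, lay within the Veh range. The ACEi mice, at 68.05, 97.19 and 73.59 CPM, lay within the WT range. Car14 shares 521 bases with Aph1a on the other strand, whose counts summed to 315.6% of those of Car14, and strand was not stated for the counting. Aph1a fell less, from 208.7 ± 14.7 CPM in WT (SD, n = 5) to 161.3 ± 6.84 CPM in Veh (SD, n = 6).

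Car2 (ENSMUSG00000027562, chr3:14886273-14900770, plus strand), the cytosolic enzyme of tubule cells and also of red cells, read 400.6, 432.8, 359.5, 345.1 and 383.5 CPM in WT and 227.3 to 283.4 CPM in Veh (median 242.4). Its fall of 0.63 on the log2 scale (SE 0.0799, adjusted p = 5.442e-07) rested on the scaling. Scaled by library totals alone, Car2 changed by -0.05 (adjusted p = 0.5358), and its FPKM overlapped, at 177 ± 16.6 in WT and 173 ± 11.5 in Veh. That scaling lifts the median of all genes to 0.65 on the log2 scale. The value of Car2 minus the median of all genes, which a change of scaling leaves nearly the same by construction, was -0.695. All 5 erythroid markers were also lower in Veh, from 782 to 4757 CPM summed in WT to 8.99 to 286 CPM in Veh, and their part in the level of Car2 was not tested.

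Car15 (ENSMUSG00000090236, chr16:17835276-17838364, minus strand), a carbonic anhydrase of the membrane-anchored kind that humans lack as a working gene, went the other way. It read 97.46, 84.36, 81.05, 74.52 and 95.51 CPM in WT and 89.1 to 117.9 CPM in Veh (median 110.6). Of the 6 Veh mice, 5 lay above all WT mice in CPM and 1, A19, lay within their range. In FPKM all 6 lay above the WT mice, at 108.1 to 135.7 against 59.24 to 74.53. The log2 fold change was 0.32 (SE 0.111, adjusted p = 0.01283), larger with library totals (0.91, adjusted p = 2.005e-07). All 3088 bases of Gm20518 shared with Car15 lie on the same strand, and Gm20518 carried 14.69% as many counts as Car15, so the split of reads between them is uncertain.

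**Figure D3:**
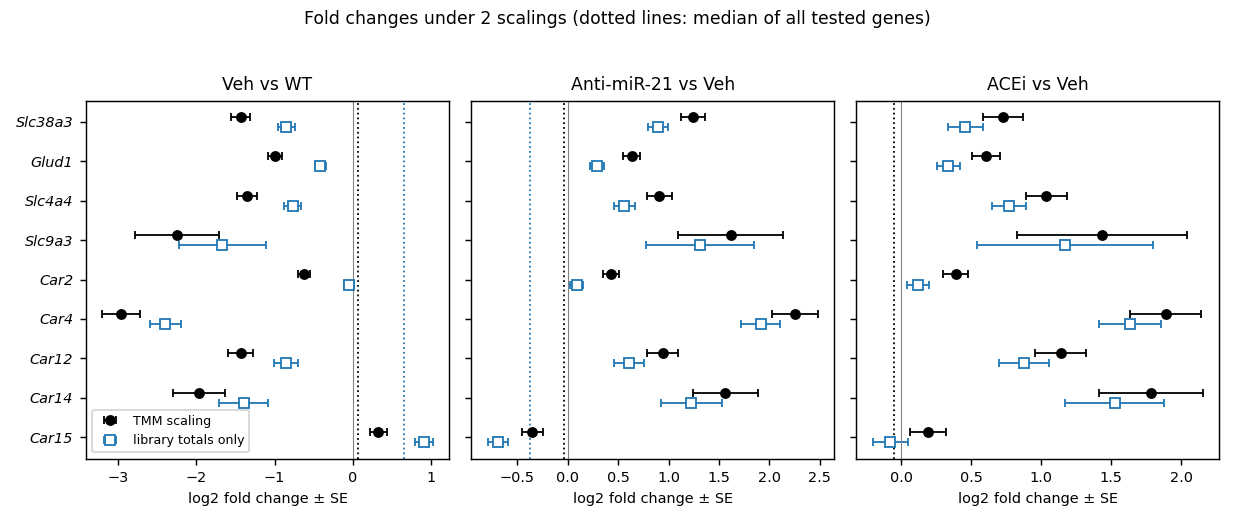
Log2 fold change ± SE of each gene in Veh against WT, anti-miR-21 against Veh and ACEi against Veh, with TMM and with library totals as scaling (dotted lines, median of all genes tested). Car2 in Veh against WT moves from -0.63 to -0.05 with library totals, where the median of all genes is 0.65.

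Scaling shifts every gene of a comparison together, and it mattered most for the genes with small changes. With TMM, 6869 of the 12867 calls in Veh against WT were higher in Veh, and with library totals 11623 of 14307 were. The log2 changes of Slc38a3, Slc4a4, Car4, Car12 and Car14 in Veh kept their sign and call with library totals, as did those of Glud1 (-0.41) and Slc9a3 (-1.67). Under treatment the same scaling moved the median of all genes by -0.38 (anti-miR-21) and -0.32 (ACEi).

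The carbonic anhydrases changed their proportions. Of the summed FPKM of Car2, Car4, Car12, Car14 and Car15, a ratio within each library on which scaling has no effect, Car4 made up 35.9 ± 3.63% in WT (SD, n = 5) and 9.53 ± 2.87% in Veh (SD, n = 6). Car15 made up 11.9 ± 1.05% in WT and 32.2 ± 3.60% in Veh. The lowest WT share of Car4 was 30.5% and the highest Veh share 14.7%, so the groups stood well apart. Car2 filled much of the rest, at 31.4 ± 1.16% in WT and 44.0 ± 2.62% in Veh.

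The ratio of Car15 to Car4 in FPKM summed this up in 1 value per mouse. It was 0.283 to 0.352 in WT and 1.89 to 5.82 in Veh. Anti-miR-21 mice lay at 0.41 to 0.789 and ACEi mice at 0.853 to 1.12. The 4 ranges did not overlap at any point, with WT lowest, then anti-miR-21, ACEi and Veh. This pair joins the steepest fall and the only rise in Veh, and other pairs were not computed. In CPM the means of Slc4a4, Car12 and Car14 lay nearer WT under ACEi than under anti-miR-21.

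**Figure D4:**
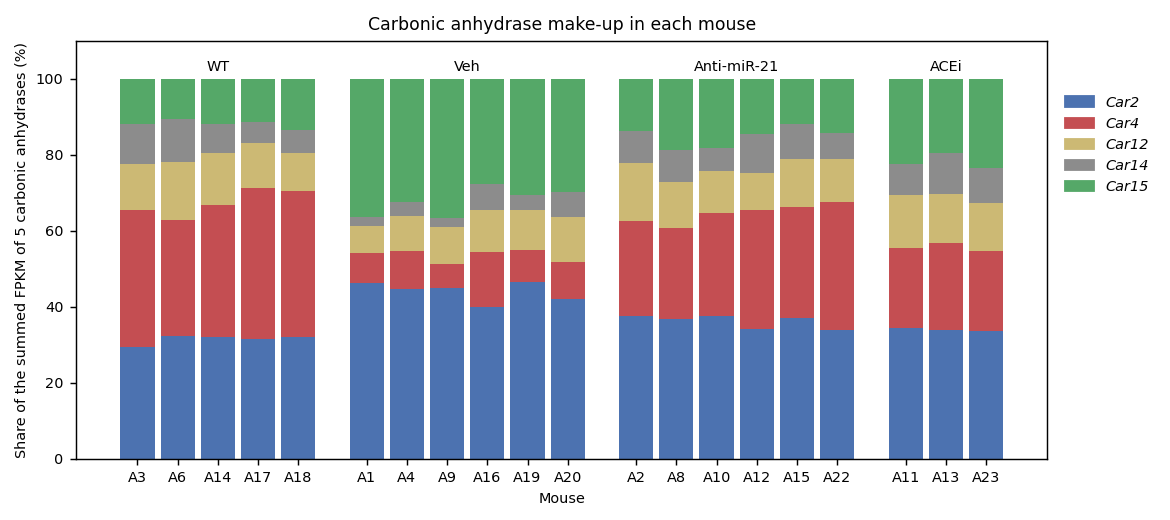
Share of the summed FPKM of 5 carbonic anhydrases in each mouse, in percent, grouped by treatment. Car4 falls from a mean of 35.9% in WT to 9.53% in Veh and stands at 28.4% under anti-miR-21 and 21.7% under ACEi, while Car15 goes from 11.9% to 32.2%, 15.3% and 21.8%.

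By FPKM the order of the 9 genes in WT was Car4 (201.1), Car2 (177), Glud1 (141), Car12 (71.3), Slc4a4 (70.9), Car15 (66.7), Car14 (47.0), Slc9a3 (37.4) and Slc38a3 (33.2). Neighbours in that order overlapped between mice, except Car2 with Glud1 and Glud1 with Car12. In Veh the order became Car2 (173), Car15 (126), Glud1 (106), Slc4a4 (41.7), Car12 (39.7), Car4 (38.5), Slc38a3 (18.3), Car14 (17.8) and Slc9a3 (15.2). Car4 had thus gone from the first place to the sixth, where its range overlapped those of its neighbours, and Car15 from the sixth to the second. Both treated groups were headed by Car2, with Car4 next under anti-miR-21 (144) and behind Glud1 and Car15 under ACEi (119). Under anti-miR-21 the range of Car4 overlapped those of Car2 and Glud1, and under ACEi that of Car15 (120).

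Anti-miR-21 was compared with Veh to ask what the oligonucleotide changes in the Col4a3-/- kidney. Of the 9 genes, 8 rose and 1, Car15, fell, where 59.2% of all genes were called and 28.8% were called higher. In CPM the mice of the 2 groups were separated for 6 of the 9, as for 36.4% of all genes. The median log2 fold change was 0.94, against -0.04 over all genes. Car4 rose most, by 2.25 on the log2 scale or 4.77-fold (SE 0.226, adjusted p = 1.179e-07), and Slc38a3 rose 2.36-fold (1.24, SE 0.120, adjusted p = 8.799e-08). Car14 rose by 1.56, Slc9a3 by 1.62 in counts (adjusted p = 0.01151) and by 1.30 in FPKM divided by the TMM factor (adjusted p = 5.722e-06). Car12 (0.94), Slc4a4 (0.91), Glud1 (0.63) and Car2 (0.43) rose less, with adjusted p from 2.763e-06 to 7.316e-05. The rise of Slc9a3 in counts leaned on mouse A2 (10.74 CPM, against 1.911 to 4.799 in the other anti-miR-21 mice), without which the adjusted p was 0.05329. Car2 changed by 0.09 with library totals (adjusted p = 0.2234).

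ACEi was compared with the same 6 Veh mice, so the 2 treatment comparisons share their controls. Here 7 of the 9 genes rose and 2, Slc9a3 and Car15, were not called, where 40.1% of all genes were called and 21.0% were called higher. Separation in CPM held for 7 of the 9, as for 38.6% of all genes. The median log2 fold change was 1.04, against -0.05 over all genes. Car4 rose by 1.89 (SE 0.255, adjusted p = 2.071e-05), Car14 by 1.78, Car12 by 1.14, Slc4a4 by 1.04, Slc38a3 by 0.73, Glud1 by 0.60 and Car2 by 0.39, with adjusted p up to 0.00248. The call of Car2 was lost with library totals (0.12, adjusted p = 0.2025) and with limma on log2(FPKM + 1) (0.11, adjusted p = 0.1945). Slc9a3 missed the threshold in counts (1.43, adjusted p = 0.06596) and passed it in FPKM divided by the TMM factor (1.21, adjusted p = 0.0002845). Car15 differed by 0.19 (SE 0.128, adjusted p = 0.2478), with the sign reversed under library totals (-0.08). Within flow cell B alone, with 2 mice a group, 4 of the 9 genes were called (Slc4a4, Car4, Car12 and Car14), against 9.06% of all genes.

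Position between Veh and WT, given for TMM-scaled levels only, put both treatments on 1 scale. Taking the mean log2 level of Veh as 0% and that of WT as 100%, anti-miR-21 mice stood at 86.9 ± 10.6% for Slc38a3 (SD, n = 6) and ACEi mice at 51.5 ± 11.6% (SD, n = 3). Glud1 stood at 63.8 and 61.1%, Slc4a4 at 67.4 and 77.6%, and Slc9a3, from FPKM divided by the TMM factor, at 70.3 and 65.8%. Car2 stood at 68.6 and 62.4%, Car4 at 75.8 and 64.9%, Car12 at 67.8 and 81.4%, and Car14 at 82.7 and 95%. Among the 8 genes that were lower in Veh, the widest gap between the treatments was that of Slc38a3, whose treated mice did not overlap, from 75.3 to 100.0% and from 40.7 to 63.7%. Car15, whose Veh and WT means lie close together with TMM, stood at 113 ± 86.8% under anti-miR-21 (27.3 to 236%) and at -59.8 ± 21.6% under ACEi (-76.8 to -35.5%), a wider gap and also without overlap. These positions rest on the scaling. With library totals Car2 differed by only -0.05 between Veh and WT. Glud1 then rose by 0.29 under anti-miR-21 and by 0.33 under ACEi, the other order. With that scaling Car15 under ACEi differed from Veh by -0.08, toward WT, where Veh minus WT was 0.91.

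Compared directly, anti-miR-21 and ACEi mice differed in 0 of the 9 genes in edgeR, where 0.584% of all genes were called. At an unadjusted p under 0.05 there were 2, Slc38a3 and Car15, the same 2 that were separated in CPM (8.99% of all genes were), and DESeq2, which called 2.5% of all genes, called both. Slc38a3 was higher under anti-miR-21 by 0.51 on the log2 scale (95% interval 0.22 to 0.80, adjusted p = 0.1167) and Car15 was lower by 0.54 (-0.79 to -0.30, adjusted p = 0.05361). ACEi mice sat mostly on flow cell B and anti-miR-21 mice mostly on flow cell A. With flow cell as a term the differences were 0.63 (adjusted p = 0.0507) and -0.52 (adjusted p = 0.08101). For the 7 other genes the intervals spanned 0, the narrowest being that of Car2 (-0.14 to 0.23) and the widest that of Slc9a3 in counts (-1.02 to 1.38).

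Under anti-miR-21 Car15 read 63.28 to 101.6 CPM (median 89.42), a range that reached into that of Veh and WT. In FPKM it ran from 59.55 to 99.01, which overlapped WT and lay below all Veh mice (from 108.1). Under ACEi Car15 read 125.7, 117.0 and 128.5 CPM, above all anti-miR-21 and all WT mice. Against Veh, Car15 fell by 0.35 on the log2 scale under anti-miR-21 (SE 0.106, adjusted p = 0.007007). Within flow cell A only, the fall was no longer called (-0.32, adjusted p = 0.06231), and with library totals it was -0.69 (adjusted p = 8.25e-06).

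Anti-miR-21 mice were lower than WT in 4 of the 9 genes, a share close to the 43.7% of all genes called in this comparison: Car4 by -0.71, Car12 by -0.49, Slc4a4 by -0.44 and Glud1 by -0.36 on the log2 scale. With library totals the calls of Car12 (-0.25, adjusted p = 0.1936), Slc4a4 (-0.21, adjusted p = 0.1094) and Glud1 (-0.12, adjusted p = 0.1555) were lost, and with limma on FPKM not divided by the TMM factor all 4 were. Slc38a3 differed from WT by -0.20 (adjusted p = 0.2047) and Car15 by -0.03 (adjusted p = 0.8548). Slc9a3 was not called against WT in counts (-0.63, adjusted p = 0.3388). In FPKM divided by the TMM factor, limma called Slc9a3 lower (-0.56, adjusted p = 0.02183). ACEi mice differed from WT in 5 of the 9 genes, close to the 47.7% of all genes called: Car4 (-1.07), Slc38a3 (-0.71), Glud1 (-0.39) and Car2 (-0.24, adjusted p = 0.04886) were lower and Car15 (0.52, adjusted p = 0.003216) was higher. With library totals Glud1 (-0.08, adjusted p = 0.4483) and Car2 (0.07, adjusted p = 0.4598) were not called. Slc9a3 under ACEi was not called against WT in counts (-0.81, adjusted p = 0.3129). With limma on FPKM divided by the TMM factor it was called lower (-0.64, adjusted p = 0.0249).

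Flow cell moved with the size of the disease difference. In TMM-scaled levels the 2 highest Veh mice in all 9 genes were A16 and A20, the 2 Veh mice of flow cell B. In FPKM not divided by the TMM factor this failed for Car15, where A16 (125.8) lay below A9 (131.6). A16 also had the highest proximal tubule sum of the Veh mice. The mean log2 level of Car14 in Veh minus that in WT was -2.88 within flow cell A (3 WT, 4 Veh) and -0.541 within flow cell B (2 WT, 2 Veh). It was -1.88 and -0.69 for Car12, -1.66 and -0.838 for Slc4a4, and -3.35 and -2.45 for Car4. Slc38a3 was steadier, at -1.51 and -1.23. The rise of Car15 was the larger in B, at 0.256 in A and 0.452 in B. The WT mice differed between flow cells too. Mean WT levels in A and B were 111.7 and 58.26 CPM for Car14, 360.3 and 258.6 for Car12, and 703.0 and 547.3 for Slc4a4. They were higher in B for Slc38a3 (96.4 and 109.7) and Car4 (312.2 and 325.7). Tested as a difference between flow cells, 2 of the 9 genes were called, Car14 (adjusted p = 0.01458) and Car12 (adjusted p = 0.01314), where 1.06% of all genes were called, and Slc4a4 was next (adjusted p = 0.05296). What sets the flow cells apart was not tested. Within flow cell A alone 8 of the 9 genes were called in Veh against WT (65.2% of all genes), all but Car15 (0.27, adjusted p = 0.1358). Within flow cell B alone 8 were (52.9% of all genes), all but Slc9a3 in counts (-0.51, adjusted p = 0.3242).

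**Figure D5:**
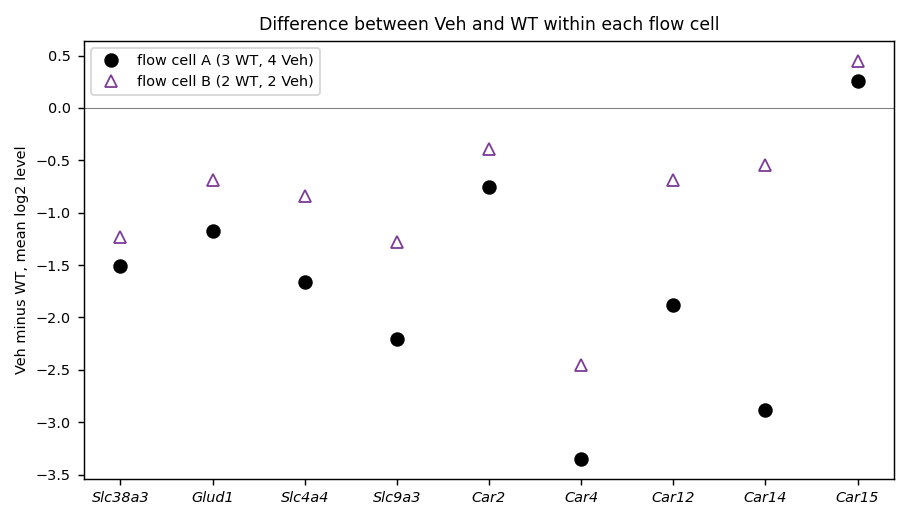
Mean log2 level of Veh minus WT within flow cell A (3 WT, 4 Veh) and flow cell B (2 WT, 2 Veh) for each gene, Slc9a3 from FPKM divided by the TMM factor. Falls are larger in A for all 8 genes that fell, most of all Car14 (-2.88 and -0.541).

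Set against the proximal tubule markers, whose summed level also fell, most of the 9 genes fell less. Each ratio was taken within a mouse to the geometric mean of those markers in CPM. The mean log2 ratio of Car4 went from -2.45 ± 0.182 in WT (SD, n = 5) to -2.98 ± 0.198 in Veh (SD, n = 6), without overlap. For Glud1 it went the other way, from -1.69 to -0.166, for Slc38a3 from -4.10 to -3.01 and for Slc4a4 from -1.45 to -0.283. Car2 went from -2.18 to -0.280 and Car15 from -4.32 to -1.47. The ratio of Slc9a3 (-5.52 in WT, -4.32 in Veh) used FPKM not divided by the TMM factor. That raises Veh against WT, so it is not on the same scale as the others. Slc9a3 aside, Car4 was the 1 gene of the 9 whose mean ratio was lower in Veh.

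The levels of the falling genes rose and fell together over the 20 mice. Among the 7 genes other than Slc9a3 and Car15, pairwise Pearson r of log2 CPM was 0.84 to 0.976 (21 pairs), and 0.483 to 0.873 once group means were removed. Car15 correlated with those 7 at -0.484 to -0.231, and at 0.0033 to 0.472 within groups. All points share library scaling and the group differences, so these are descriptions. Of 12574 genes compared, those most like each member over 20 mice were Grhpr and Slc22a18 for Car4 (both r = 0.997), Slc25a16 (0.994) and Sfxn1 (0.992) for Glud1, Tmem8 (0.991) and Lamp2 (0.988) for Slc4a4, and Mtfp1 (0.979) and Tmem178 (0.977) for Slc38a3. For Car2 they were Keg1 and Sms (both 0.979), for Car12 Slc6a19 and Nadk2 (both 0.975), and for Car14 Mogat2 (0.971) and Agxt2 (0.970). Car15 had no close partner: its nearest were E2f3 (0.773) and Tceal8 (0.762), and 0 genes passed r of 0.9, against 363 for Car14 and 2217 for Glud1.

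Other genes of these pathways were counted by list, and the shares of all genes to set beside those counts are 73.0% called and 34.0% lower in Veh against WT, 59.2% called and 28.8% higher under anti-miR-21, and 40.1% called and 21.0% higher under ACEi. These lists, too, were chosen with earlier results of these data known. Of 8 further genes of ammonia genesis, 7 fell and 1 rose in Veh against WT (median log2 fold change -1.22, against 0.07 over all genes). Pck1, the phosphoenolpyruvate carboxykinase that disposes of the carbon left from glutamine, changed by -2.89, Ggt1, the brush border gamma-glutamyltransferase, by -2.59, and Slc25a10, the mitochondrial dicarboxylate carrier, by -2.03. Gls2, the liver-type glutaminase, rose by 1.23 at a low level, 0.127 to 0.881 CPM in WT and 0.787 to 1.15 CPM in Veh. Against Veh, 5 of the 8 rose and the others were not called under anti-miR-21, and 6 rose and the others were not called under ACEi.

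Of 13 further genes of proximal acid and bicarbonate transport, 9 fell and 3 rose in Veh (median -1.37), where 34.0% of all genes were called lower. Slc9a8, a sodium-proton exchanger, changed by -2.87 and Pdzk1, a brush border scaffold protein, by -2.33, while the proton-sensing receptor Gpr4 rose by 0.83. Under anti-miR-21 10 rose and 2 fell, and under ACEi 8 rose and 1 fell, where 28.8% and 21.0% of all genes were called higher.

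Of 6 genes of ammonia transport, 4 fell and 1 rose in Veh (median -1.12; 34.0% of all genes were called lower), with the ammonia transporters Rhbg (-1.82) and Rhcg (-1.33) among the falls and the exchanger Slc9a4 (1.49) the rise. Under anti-miR-21 4 rose and 1 fell, and under ACEi 3 rose and 1 fell. Of 11 genes of intercalated cell acid-base transport, 10 fell and 1 rose in Veh (median -1.06), beside the same 34.0%. Slc4a1, the anion exchanger that red cells also carry, changed by -2.57 and pendrin (Slc26a4) by -2.04, and Slc4a8 rose by 0.41. Under anti-miR-21 9 rose and 1 fell, and under ACEi 8 rose and 1 fell. For both lists the shares of all genes called higher were again 28.8% and 21.0%.

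Of 11 other carbonic anhydrases, 8 passed the filter, of which 4 fell and 2 rose in Veh (median -0.40), a share called that is close to the 73.0% of all genes. Car9 (-2.82) and the mitochondrial Car5a (-2.22) fell, and the cytosolic Car13 (2.42) and the related protein Car11 (0.91) rose. Car13 read 1.47 to 2.41 CPM in WT and 10.1 to 11.3 CPM in Veh, so its rise left the groups far apart in CPM, where those of Car15 overlapped. Under anti-miR-21 3 rose and 2 fell, and under ACEi 3 rose and 1 fell, where 59.2% and 40.1% of all genes were called.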

How the data were processed

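Kidney RNA-seq of 20 mice (100 bp paired-end reads, total RNA) was used as deposited by the authors, who aligned reads to the mouse genome with the OmicSoft aligner and quantified genes of an Ensembl annotation. The deposited count table holds estimated counts per gene made by the authors, 29.1% of its positive values not whole, and these were rounded. The deposited FPKM table was computed by the authors on gene models that its annotation names mostly as UCSC entries, and 3 further library columns in it were not used. Groups came from the labels and flow cells from the run names in the labels. The 9 genes and all gene lists were chosen with earlier results of these data known.

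Genes passing filterByExpr (17622) were scaled by TMM and fitted over the 20 mice with 1 coefficient per group by edgeR 4.0.16 (quasi-likelihood test, Benjamini-Hochberg adjustment over all genes, threshold 0.05) in R 4.3.3. The same fit ran on simulated data with known changes. CPM was computed on the TMM-scaled library size. Alternatives were DESeq2 1.42.0, library totals, upper quartile, no filter, at least 10 counts in every mouse, flow cell as a term, flow cell A only, only the groups compared, limma 3.58.1 on log2(FPKM + 1) and log2(FPKM + 0.1), and each mouse left out. Flow cell B only, limma on FPKM divided by the TMM factor, and the test between flow cells were added after seeing the data. SE of a fold change was its size divided by the root of the F statistic, and 95% intervals were normal. Depth was 28474301 to 29479629 counts per mouse. The likeness of genes was Pearson's r of log2 CPM (prior count 2) over protein-coding genes with a mean log2 CPM of at least 1, and the 2 highest were named. Named pathway genes were those with the largest change in each direction in Veh against WT among called genes of each list, except for a gene whose own values are not reported here. Sequences came from RefSeq (GRCm38.p6), and promoters of Car2 and Slc38a3 were not used.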

Additional observations from a re-analysis of the deposited data

Results flagged for a closer look

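Among 27 combinations of gene and group large enough to test for a lone sample, 1 was flagged, where chance gives about 1.35. It was Car15 in Veh mouse A19, at 89.1 CPM, below the 5 other Veh mice at 109.1 to 117.9 CPM. The counts of Slc9a3 under anti-miR-21 also held a mouse far apart that is not among the flags. Mouse A2 read 10.74 CPM there and the next highest mouse 4.799 CPM. Without any 1 Veh mouse, Car15 stayed called in Veh against WT.

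In Car15, every anti-miR-21 mouse lay below the Veh mean of 108.4 CPM and every ACEi mouse lay above it. The ACEi difference from Veh was not called (0.19, edgeR adjusted p = 0.2478) and was negative with library totals (-0.08) and with limma on log2(FPKM + 1) (-0.08) or log2(FPKM + 0.1) (-0.08). The difference between the treatments was -0.5445 on the log2 scale (edgeR adjusted p = 0.05361, not past the threshold), between -0.60 and -0.47 when each mouse was left out, with adjusted p = 0.02535 without mouse A8.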

How the results depend on the processing

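Called genes of the 9 kept within 1.5 times the main count under all alternatives run in Veh against WT (9) and anti-miR-21 against Veh (9). Flow cell B only gave 4 in ACEi against Veh (7) and 3 in ACEi against WT (5). Anti-miR-21 against ACEi (0) gave 1 with library totals, the strict filter, only the groups compared, and limma on FPKM with either pseudocount, and 2 with DESeq2. Anti-miR-21 against WT (4) gave 1 with library totals and 0 with limma on FPKM. ACEi against WT gave 3 with library totals and with limma on FPKM. With each mouse left out the counts were 9, 8 to 9, 7 to 8, 0 to 1 (1 without A8), 3 to 5 and 4 to 5, in the order Veh against WT, anti-miR-21 and ACEi against Veh, anti-miR-21 against ACEi, anti-miR-21 and ACEi against WT. The causes were not tested.

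With library totals, FPKM + 1 and FPKM + 0.1 the reversed log2 differences were, in turn, for ACEi against Veh Car15 -0.078, -0.076 and -0.077 (main 0.19), and for anti-miR-21 against ACEi Glud1 -0.0435, -0.0432 and -0.0435 (0.03) and Car2 -0.031, -0.032 and -0.032 (0.04). For anti-miR-21 against WT they were Slc38a3 0.042, 0.056 and 0.058 (-0.20), Car2 0.042, 0.049 and 0.049 (-0.20), and Car15 0.217, 0.196 and 0.198 (-0.03). For ACEi against WT they were Car2 0.073, 0.081 and 0.082 (-0.24), Car12 0.020, 0.042 and 0.043 (-0.29), Car14 0.130, 0.195 and 0.200 (-0.18), and, with the FPKM fits, Slc4a4 0.0076 and 0.0078 (-0.31). Car15 against WT under anti-miR-21 was also 0.0043 with the upper quartile and 0.014 with the strict filter. Flow cell B only gave, for ACEi against WT, Slc9a3 0.397, Car12 0.097 and Car14 0.528. Leaving out mice reversed Glud1 (-0.010 to 0.078) and Slc9a3 (-0.28 to 0.57) in anti-miR-21 against ACEi, Car15 in anti-miR-21 against WT (-0.087 to 0.042) and Car14 in ACEi against WT (-0.34 to 0.0020). Of the gene values under all alternatives, 1024 kept direction and side of the threshold, 43 lost the call, 18 gained it and 43 reversed.

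The call of Car2 in ACEi against WT was lost under many settings, for example upper quartile (adjusted p = 0.06794) and without A6 (0.1123), and Car12 in anti-miR-21 against WT without A6 (0.07096). Slc9a3 in ACEi against Veh was called without A20 (0.01977). Over all genes, 103 were called between anti-miR-21 and ACEi, 440 with DESeq2 and 21 to 25 without an ACEi mouse. Flow cell A only was not run for ACEi (1 mouse), flow cell B only not for anti-miR-21 (1 mouse), and Slc9a3 has no value under the strict filter of at least 10 counts in every mouse. No paired analysis was possible because each mouse has its own number.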

Other observations

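Car3, a cytosolic carbonic anhydrase abundant in fat and muscle, read 3.38 to 263.7 CPM in Veh (median 86.07) and 29.86 to 73.95 CPM in WT. It read 10.7 to 220.2 CPM under anti-miR-21 (median 26.6) and 6.56 to 22.3 CPM under ACEi, and was not called in Veh against WT (log2 fold change 1.06, adjusted p = 0.2874). Summed adipocyte markers were highest in Veh mouse A1 (410.1 CPM) and in anti-miR-21 mouse A12 (224.2 CPM).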
